A study of Mus musculus with 78 samples.

Results

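The genes described here encode subunits of respiratory complex I in mouse embryonic stem cells (mESC) from which the transcription factor ZFP143 was depleted. Members were the protein-coding genes whose symbol is Ndufa, Ndufb, Ndufc, Ndufs or Ndufv followed by a number, together with Ndufab1, and assembly factors were left out. This gave 37 genes of the 55401 in each count table, 21897 of which were annotated as protein-coding. All 37 passed the filter on low counts in each of the 3 tables. They were split by whether a ZFP143 peak lay within 2000 bases of an annotated transcript start, which 12 members had and 25 did not.

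The cells were E14TG2a mESC whose ZFP143 carried an FKBP degron with an HA tag, followed by eGFP, so that the ligand dTAG-V1 leads to degradation of the protein. Every library, controls included, came from these tagged cells, and the study worked with homozygous clones grown from sorted single cells, so that any effect of the tag is shared by all groups. Controls received DMSO and treated cells 500 nM dTAG-V1. Newly made RNA was measured by TT-seq, in which a pulse of 10 min with 2 mM 4sU labels RNA under synthesis, in DMSO cells and at 3 times of depletion (2 h, 6 h and 24 h). Total polyadenylated RNA was measured by RNA-seq in DMSO cells and after 24, 48 and 72 h. In a second RNA-seq experiment, cells held for 24 h in DMSO or dTAG-V1 were collected or moved to medium with retinoic acid (RA) for 24 h, the treatment continuing, so the depleted RA cells had 48 h of depletion. That medium also differs from the stem cell medium, and no group had the new medium without RA, so an RA effect here is that of both. Each group had 2 libraries, and p-values measure the spread between these.

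Complex I is the entry point of the mitochondrial respiratory chain, where electrons from NADH pass to ubiquinone and protons are pumped across the inner membrane. It has a peripheral arm in the matrix, which holds the flavin and iron-sulfur clusters, and a membrane arm that pumps protons. The core subunits are shared with bacteria, some of them encoded in mitochondrial DNA and the rest in the nucleus, and the accessory subunits surround them. ZFP143 is a zinc finger protein that binds near transcript starts, at an element whose known letters include ACTACA followed a little further on by TTCCCA, and many of its targets serve mitochondria.

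Total counts per library were 9721568 to 16532077 in TT-seq, 10261851 to 15316700 in the RNA-seq time course and 13890761 to 27089033 in the RA experiment. The 6 stem cell markers (Pou5f1, Sox2, Nanog, Zfp42, Esrrb and Tfcp2l1) lay between 46.0 and 1521.55 CPM (counts divided by the TMM-scaled size of the library) in all TT-seq libraries and between 238.7 and 1296 in the RNA-seq time course. Nanog RNA was lower with depletion in the time course, at 759.2 and 779.5 CPM in DMSO cells and down to 248.5 CPM. Further stem cell markers also reached lower levels. Sox2 was at 512.5 and 524.7 CPM and down to 238.7 CPM, and Zfp42 at 592.5 and 607.6 CPM and down to 384.3 CPM. Pou5f1 was at 1101 and 1143 CPM and down to 754.2 CPM, and Tfcp2l1 at 1254 and 1296 CPM and down to 943.2 CPM. Esrrb, at 971.7 and 954.8 CPM in DMSO cells, stayed between 893.0 and 1006 CPM in all libraries. The part of these markers in the results was not tested. In bulk samples, fewer cells of a type and less RNA per cell cannot be told apart. Of the 9 markers of primitive endoderm, trophoblast and fibroblasts, the highest in those tables was at 16.8 CPM, and in the time course some were higher in depleted cells, with Gata4 at 5.33 and 5.84 CPM in DMSO cells and up to 12.02 CPM, Sox17 at 0.184 and 0.143 and up to 1.48 CPM, and Col1a1 at 0.184 and 0.214 and up to 1.92 CPM. Their part was not tested. In TT-seq, Zfp143 RNA was not lower in depleted cells, with 71.3 and 74.4 CPM in the TT-seq DMSO libraries and up to 169.3 CPM after depletion, and since the degron acts on the protein this does not check the labels.

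In DMSO cells of the RNA-seq time course, the members had a median level of 41.7 CPM per kb of exon, against 6.31 for all tested genes. Levels are given per kb only where genes are compared. Among the high ones were Ndufa4, now assigned to complex IV, at 126.4 ± 3.00 CPM per kb (SD, n = 2), Ndufa13 of the membrane arm at 106.4 ± 2.252 and Ndufb6 at 103.0 ± 0.570. The lowest were Ndufb2 at 1.18 ± 0.180, Ndufs5 at 1.72 ± 0.439 and Ndufab1 at 5.74 ± 0.397. Exon length is that of all annotated transcripts merged, 5628 bases for Ndufb2 and 6883 for Ndufab1. Where the transcripts in use are shorter than that, the level per kb is too low, which was not tested. Ndufs5 had only 16 to 25 counts in each library of this table. Ndufb2 overlaps another protein-coding gene, Gm42420, on its own strand, as Ndufa13 does with Yjefn3, Ndufb8 with Gm20538 and Ndufb9 with Gm49356, and the levels of these 4 members are uncertain. In TT-seq DMSO cells the median was 3.50 CPM per kb of gene, against 1.195 for all tested genes, and the members spanned an 8.54-fold range.

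**Figure D1:**
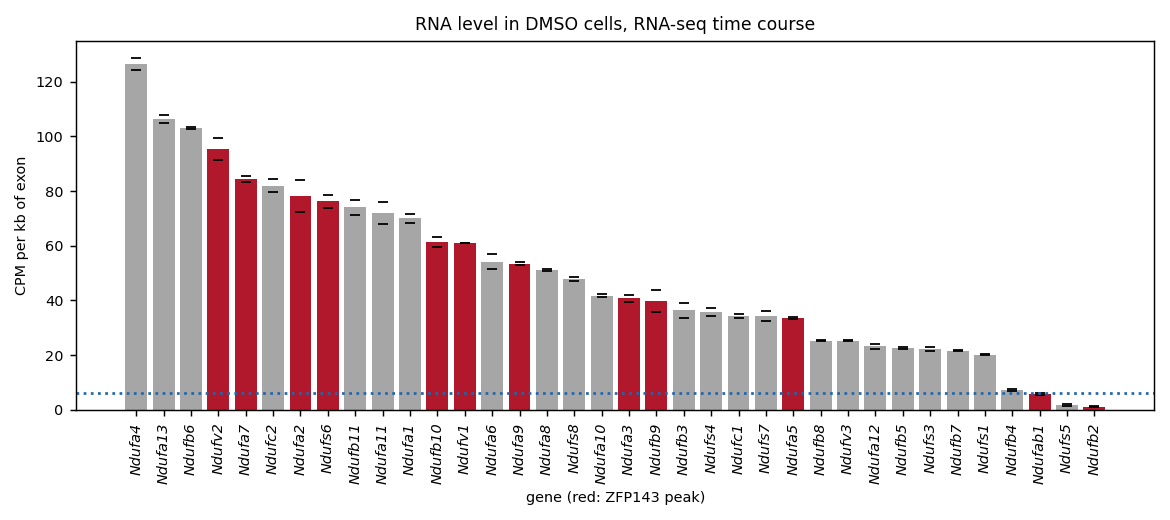
Level of 36 members in the 2 DMSO libraries of the RNA-seq time course, in CPM per kb of exon, with the exons of all annotated transcripts merged. Bars start at 0 and show the mean, short lines show the libraries, red bars mark members with a ZFP143 peak, and the dotted line is the median of all tested genes, 6.31, which all of those shown but Ndufab1, Ndufb2 and Ndufs5 exceeded.

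The ZFP143 peaks came from chromatin immunoprecipitation with an antibody to the HA tag, as 1 list of 3189 peaks without replicates. A peak lay within 2000 bases of a transcript start at 32.4% of the members and at 10.4% of all protein-coding genes in the tables. Among protein-coding genes that passed the filter on low counts, as all members did, the share was 16.0% for TT-seq and 16.7% for the time course. The 12 members with a peak were Ndufa2, Ndufa3, Ndufa5, Ndufa7, Ndufa9, Ndufab1, Ndufb2, Ndufb9, Ndufb10, Ndufs6, Ndufv1 and Ndufv2, and all 12 kept a peak when the distance was reduced to 500 bases. Enrichment over input at these peaks ran from 9.89-fold at Ndufs6 to 66.6-fold at Ndufb2, with a median of 46.2 against 20.8 over all peaks. At 10 of the 12 it was at or above that median, the exceptions being Ndufa2 at 12.5 and Ndufs6 at 9.89. The summit lay within 10 bases of the transcript start at 5 of the 12 and farther away at 7, up to 167 bases upstream at Ndufa2. That of Ndufa3 lay 20 bases upstream and that of Ndufb10 3 bases upstream, that of Ndufab1 8 bases downstream, while those of Ndufb2 and Ndufs6 lay 230 and 450 bases downstream, inside the gene. A CTCF peak overlapped the ZFP143 peak at 4 of the 12 (Ndufa3, Ndufab1, Ndufb10 and Ndufv1), against 6.93% of all ZFP143 peaks.

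The sequence under 6 of these summits is shown because these members span the responses described next: 4 that fell on depletion in at least 1 comparison, and Ndufa9 and Ndufb2, which have strong peaks and did not pass the test in any depletion comparison. Each is 121 bases of mm10 centred on the summit, written 5′ to 3′ along the strand of the gene, with capitals marking matches on either strand to any of 3 motifs, which were ACTACA, or else the run TTCCCA, or else the longer run CCCANNATG. The last 2 share the letters CCCA and can overlap.
Ndufa3, chr7:3617293-3617413, plus strand: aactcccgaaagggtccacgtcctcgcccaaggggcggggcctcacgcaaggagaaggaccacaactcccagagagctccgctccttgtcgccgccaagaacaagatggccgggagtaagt
Ndufa5, chr6:24527516-24527636, minus strand: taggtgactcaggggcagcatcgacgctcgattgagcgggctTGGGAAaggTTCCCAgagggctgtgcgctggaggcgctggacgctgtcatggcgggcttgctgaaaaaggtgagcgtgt
Ndufab1, chr7:122101760-122101880, minus strand: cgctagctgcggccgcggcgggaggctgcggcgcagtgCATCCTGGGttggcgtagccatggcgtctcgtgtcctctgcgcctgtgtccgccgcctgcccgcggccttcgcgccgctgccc
Ndufb10, chr17:24724421-24724541, minus strand: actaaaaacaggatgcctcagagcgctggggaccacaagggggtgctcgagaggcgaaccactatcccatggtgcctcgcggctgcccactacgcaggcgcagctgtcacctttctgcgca
Ndufa9, chr6:126849043-126849163, minus strand: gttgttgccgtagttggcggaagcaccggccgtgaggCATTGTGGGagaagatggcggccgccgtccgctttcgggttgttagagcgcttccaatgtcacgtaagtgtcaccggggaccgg
Ndufb2, chr6:39592758-39592878, plus strand: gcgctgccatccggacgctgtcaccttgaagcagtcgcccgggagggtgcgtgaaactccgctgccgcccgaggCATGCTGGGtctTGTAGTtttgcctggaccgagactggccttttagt
Ndufa5 held TTCCCA on both strands within a few bases, Ndufa9 and Ndufab1 held CCCANNATG on the opposite strand, and Ndufb2 held this motif close to ACTACA, both on the opposite strand. The windows of Ndufa3 and Ndufb10 held none of the 3 motifs, though the whole peak of Ndufa3, 477 bases long, held 1 match to ACTACA. Over all 12 peaks of members, 2 windows held ACTACA, only that of Ndufa5 (1 window) held TTCCCA, 3 held the longest motif, and 5 held any, with Ndufv1 the fifth. Of all 3189 summit windows of this length, 34.9%, 38.5% and 22.4% held these motifs, and 66.0% held any. In RefSeq promoters of 300 bases (GRCm38), which matched 33 members by symbol, 6 of 10 members with a peak and 3 of 23 without held any of the motifs, against 35.4% of all 32851 promoters. A match is only a match of letters, and a window without one can still hold a ZFP143 site. With models of both known sites that allow other letters, the study found them in most of its ZFP143 peaks.

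The first comparison asks which members change in synthesis soon after ZFP143 is lost. A gene was called in TT-seq where edgeR's quasi-likelihood test gave an adjusted p under 0.05 and the log2 change exceeded 0.5 in size. After 2 h, 2 of 37 members were called lower (background 2.43% of 17870 tested genes) and 0 higher (0.168%). At 6 h 4 members passed as lower (2.83% of all genes) and 0 as higher (0.397%). At 24 h 3 passed as lower (4.09%) and 0 as higher (2.02%). Without regard to multiple testing, edgeR gave 7, 11 and 7 members as lower and 0, 1 and 1 as higher at p under 0.05 at the 3 times, and DESeq2 called 2, 4 and 3 lower and 0 higher. Libraries with the same replicate number deviated together in TT-seq, and with that number as a block edgeR called 3, 9 and 6 members lower. Among those added were Ndufs6, which has a peak, at each time, and after 6 h Ndufa11 (-0.79, edgeR adjusted p = 0.0357) and Ndufb7 (-0.56, edgeR adjusted p = 0.0379), which have none. The shares of all genes above belong to the fit without the block, so the blocked counts cannot be read against them.

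Ndufa5, an accessory subunit of the peripheral arm, was at 16.7 and 20.7 CPM in the DMSO libraries and at 7.97 and 9.88 CPM after 2 h. Both depleted libraries lay below both controls. It fell by 1.06 on the log2 scale (SE 0.205, edgeR adjusted p = 0.0300). After 6 h it was at 8.96 and 8.68 CPM, a log2 change of -1.08 (SE 0.206, edgeR adjusted p = 0.0271). After 24 h it was at 11.3 and 11.6 CPM, still below both controls, but with a log2 change of -0.70 it did not pass (edgeR adjusted p = 0.0853, or 0.0276 with the replicate block, where it was called).

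Ndufab1, the mitochondrial acyl carrier protein, is a subunit of complex I that also serves fatty acid and lipoate synthesis. It was at 63.4 and 74.4 CPM in DMSO cells and at 33.9 and 43.2 CPM after 2 h. It fell by 0.84 (SE 0.158, edgeR adjusted p = 0.0271) and stayed lower, by 0.75 after 6 h (SE 0.158, edgeR adjusted p = 0.0414) and 0.79 after 24 h (SE 0.159, edgeR adjusted p = 0.0248). It was the only member called at all 3 times without the replicate block.

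Ndufb10, of the membrane arm, was at 11.6 and 11.9 CPM in DMSO cells and 5.38 and 5.45 CPM after 6 h. It fell by 1.11 there (SE 0.240, edgeR adjusted p = 0.0448), the lowest change of any member at that time. Ndufa7, of the peripheral arm, was at 99.7 and 109.7 CPM in DMSO cells and at 69.6 and 62.1 CPM after 6 h. It fell by 0.67 after 6 h (SE 0.120, edgeR adjusted p = 0.0207) and by 0.56 after 24 h (SE 0.120, edgeR adjusted p = 0.0309).

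Ndufa3, of the membrane arm, was lower at each later time. It was at 11.8 and 12.3 CPM in DMSO cells, at 7.49 and 7.77 CPM 2 h into depletion, at 6.70 and 6.36 CPM by 6 h, then at 5.41 and 5.55 CPM by 24 h. Its log2 changes were -0.66 (edgeR adjusted p = 0.187), -0.88 (edgeR adjusted p = 0.0524) and -1.14 (SE 0.202, edgeR adjusted p = 0.0149), so that only the last was called. With the replicate block that after 6 h was called too (edgeR adjusted p = 0.0200). The difference between 24 and 2 h, a log2 change of -0.48, did not pass (SE 0.202, edgeR adjusted p = 0.309).

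Ndufb2, which had the strongest peak of the members, had the highest change of any member after 2 h, 0.20 (SE 0.236, edgeR adjusted p = 0.799), and after 24 h, 0.30 (SE 0.237, edgeR adjusted p = 0.511), and its groups overlapped. Ndufs4, an accessory subunit without a peak, was the highest after 6 h at 0.30 (SE 0.117, edgeR adjusted p = 0.239). Between 24 and 2 h of depletion, 0 members were called lower (background 0.056%) or higher (0.0336%), with 1 and 2 members at an unadjusted p under 0.05 in edgeR and 0 called by DESeq2. The highest value there was that of Ndufa4, 0.52 (SE 0.251, edgeR adjusted p = 0.370). With 1 library left out, that arm has 1 library and the spread comes from the other groups. Without DMSO replicate 2, or without either depleted library of the comparison, 0 members were called at any of the 3 times, and without DMSO replicate 1 the count after 6 h was 2, with Ndufab1 and Ndufb10 not called, and that after 24 h was 2, with Ndufa7 not called. The log2 changes stayed below 0 in each of these fits, between -1.22 and -0.88 for Ndufa5 after 2 h, -1.14 and -1.09 for Ndufb10 after 6 h and -1.17 and -1.09 for Ndufa3 after 24 h.

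**Figure D2:**
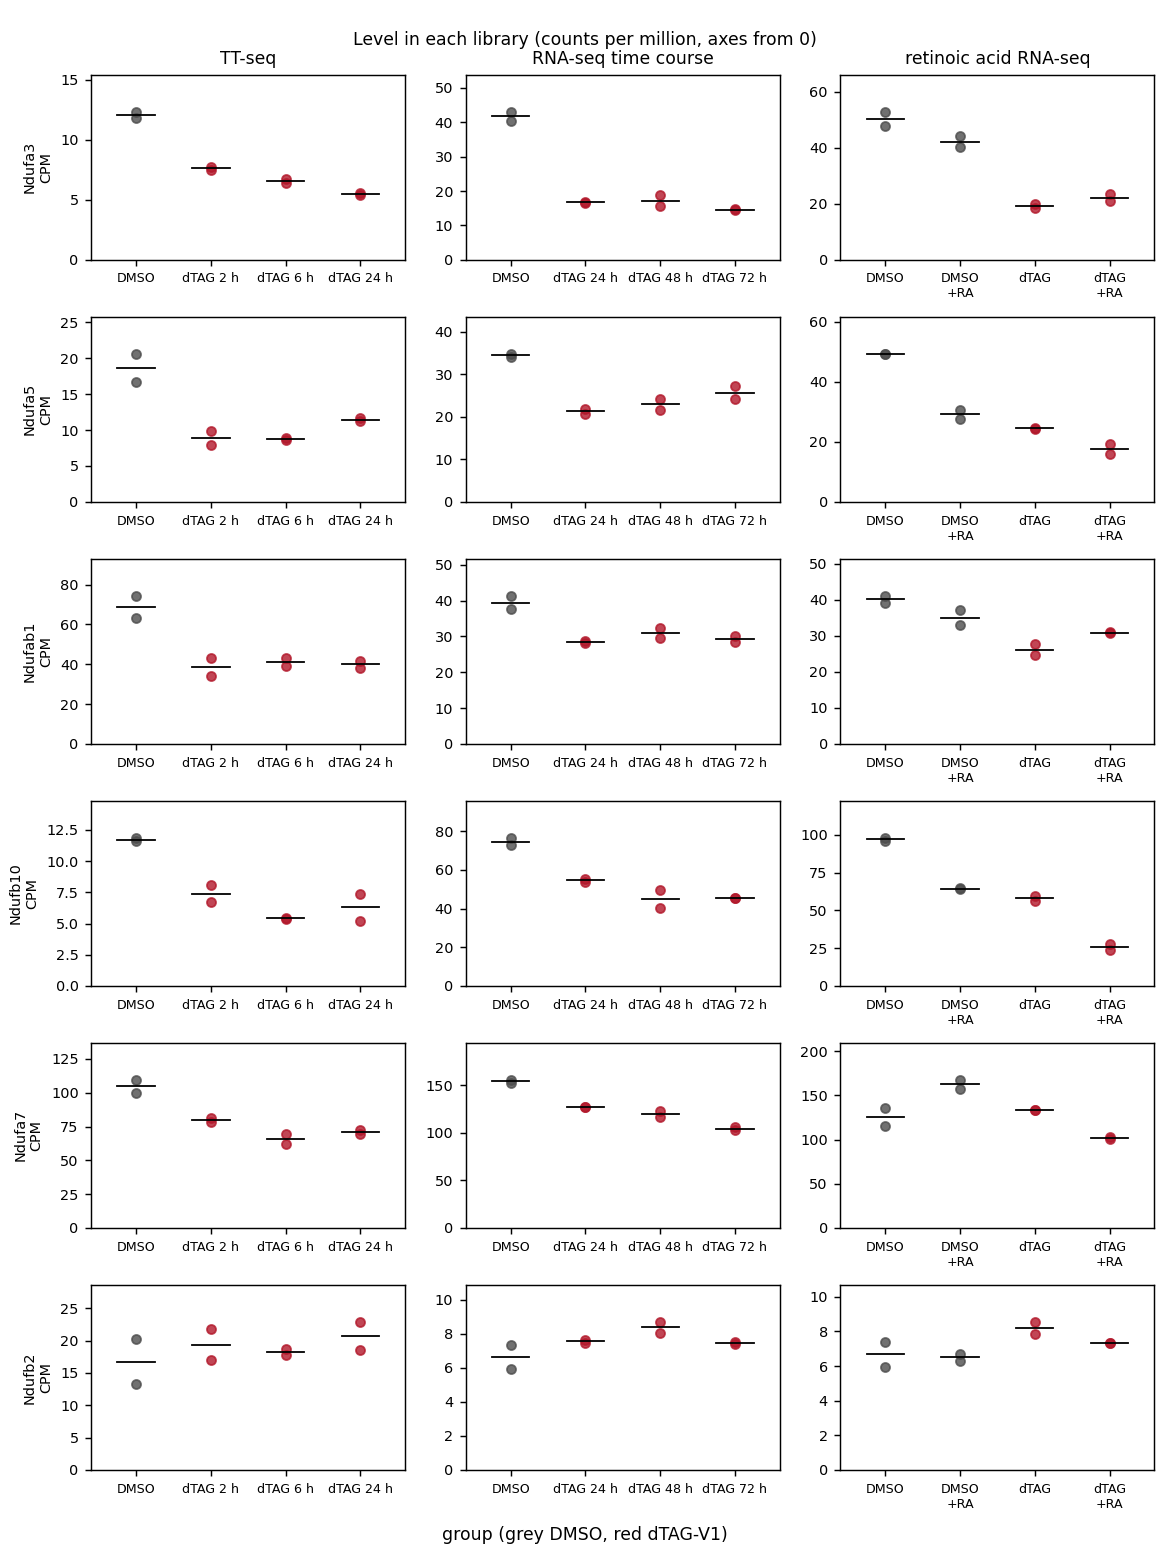
Level of 6 members with a ZFP143 peak in every library, in CPM on axes from 0, with TT-seq, the RNA-seq time course and the RA experiment from left to right. Points are libraries, lines are the means of 2, grey is DMSO and red dTAG-V1. In the RNA-seq time course Ndufa3 lay at 40.4 and 43.1 CPM in DMSO cells and between 14.5 and 18.7 CPM in all depleted libraries, whereas Ndufb2 did not fall.

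The RNA-seq time course asks how the RNA pool of the members changes over longer depletion. Here a gene was called where edgeR's glmTreat, which tests against a fold change of 1.5, gave an adjusted p under 0.01. After 24 h, 1 member was called lower (background 3.41% of 13925 tested genes) and 0 higher (2.32%). At 48 h 1 passed as lower (7.71%) and 0 as higher (10.5%), and at 72 h 2 passed as lower (12%) and 0 as higher (13.7%). The share of members called was thus below that of all genes at 48 and 72 h in both directions. At an unadjusted quasi-likelihood p under 0.05 in edgeR, 12, 17 and 25 members were lower and 6, 4 and 2 higher at the 3 times, and DESeq2 called 1 lower and 0 higher at each.

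The member called at all 3 times was Ndufa3, at 43.1 and 40.4 CPM in DMSO cells. It was at 16.9 and 16.6 CPM after 24 h and fell by 1.31 (SE 0.0939, edgeR glmTreat adjusted p = 8.17e-08). After 48 h it fell by 1.27 (SE 0.0929, edgeR glmTreat adjusted p = 8.17e-08). After 72 h it was at 14.7 and 14.5 CPM, a log2 change of -1.51 (SE 0.0947, edgeR glmTreat adjusted p = 2.34e-10), which is 35.1% of the control level. Leaving out any 1 of these libraries kept it called, with log2 changes between -1.56 and -1.16 over the 3 times.

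Ndufv2, a core subunit that carries an iron-sulfur cluster, was at 213.1 and 196.4 CPM in DMSO cells, 187.1 and 188.1 CPM at 24 h, 160.6 and 162.3 CPM at 48 h, then 122.8 and 126.6 CPM at 72 h. Its groups did not overlap. It fell by 0.71 after 72 h (SE 0.0484, edgeR glmTreat adjusted p = 0.00643), but not so as to pass without DMSO replicate 1 or without depleted replicate 1, and its TT-seq changes were between -0.12 and -0.03, none of them called. Without either of those 2 libraries the count of members called after 72 h was 1. Without depleted replicate 1 of 48 h, the count there was 2.

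The other members called in TT-seq were lower in both depleted libraries than in both controls at each RNA-seq time and did not pass. Ndufa5 had log2 changes of -0.70, -0.58 and -0.44 at 24, 48 and 72 h, Ndufab1 of -0.47, -0.34 and -0.42, Ndufb10 of -0.45, -0.73 and -0.72, and Ndufa7 of -0.27, -0.36 and -0.56. For Ndufb10 the edgeR glmTreat adjusted p was 0.0396 at 48 h and 0.0425 at 72 h, above the limit of 0.01. The highest member was Ndufa8, of the membrane arm and without a peak, at 24 h with 0.31 (SE 0.0689) and at 72 h with 0.40 (SE 0.0675), and Ndufb2 at 48 h with 0.35 (SE 0.162), all with an edgeR glmTreat adjusted p of 1. Between 72 and 24 h, 0 members were called lower (background 6.6%) or higher (7.53%) by edgeR's glmTreat or by DESeq2, with 22 lower and 1 higher at an unadjusted quasi-likelihood p under 0.05. The lowest value there was Ndufc1, of the membrane arm, at -0.76 (SE 0.0831, edgeR glmTreat adjusted p = 0.0319), and the highest Ndufa5 at 0.26 (SE 0.0958). Without depleted replicate 2 of 24 h, 1 member was called lower.

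In the RA experiment, 24 h of depletion before RA repeated the first time of the course in separate libraries. Here 2 members were called lower (background 3.66% of 15915 tested genes) and 0 higher (2.74%), with 8 members lower and 10 higher at an unadjusted quasi-likelihood p under 0.05 in edgeR and 2 called lower and 0 higher by DESeq2. Ndufa3 was at 47.7 and 52.8 CPM in DMSO cells and 18.6 and 19.8 CPM in depleted cells, and fell by 1.38 (SE 0.0983, edgeR glmTreat adjusted p = 2.33e-07). Ndufa5 was at 49.4 and 49.3 CPM against 24.6 and 24.4 CPM, and fell by 1.01 (SE 0.0989, edgeR glmTreat adjusted p = 6.92e-04), a call lost without depleted replicate 2, which leaves 1. Ndufs5, without a peak, had the highest value, 0.86, at low counts of 1.40 and 1.12 CPM against 0.682 and 0.688 CPM (SE 0.353, edgeR glmTreat adjusted p = 0.499). Across the 37 members, the log2 changes at 24 h in the time course and before RA had Pearson's r = 0.80 and Spearman's rho = 0.57. With a peak r was 0.89 over 12 genes, and without a peak 0.33 over 25. Genes are not independent replicates, so these are descriptions.

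After RA, depleted cells were compared with DMSO cells given RA alike. Here 3 members were called lower (background 7.36%) and 0 higher (9.1%), with 29 lower and 0 higher at an unadjusted quasi-likelihood p under 0.05 in edgeR and DESeq2 calling 1 lower and 0 higher. Ndufb10 was at 63.9 and 64.6 CPM in DMSO cells and 28.0 and 23.9 CPM in depleted cells, and fell by 1.31 (SE 0.0873, edgeR glmTreat adjusted p = 1.05e-07). Ndufa3 was at 44.1 and 40.1 CPM against 23.4 and 20.9 CPM, and fell by 0.93 (SE 0.0982, edgeR glmTreat adjusted p = 0.00157). Ndufb11, of the membrane arm, was at 90.8 and 88.1 CPM against 50.3 and 47.5 CPM, and fell by 0.87 (SE 0.0764, edgeR glmTreat adjusted p = 8.92e-04). By these rules it is the 1 member of 25 without a peak (4%) called lower in any of the 8 comparisons of depleted with DMSO cells, against 6 of the 12 with a peak (50%). Over all protein-coding genes tested in the 3 tables, these shares were 14.6% of 9904 without a peak and 40.3% of 2056 with one. With the thresholds swapped (glmTreat for TT-seq, the quasi-likelihood rule for RNA-seq), 13 of the 25 without a peak were called lower in any of the 8 comparisons. For this and the alternatives that follow, the matching counts with a peak and shares of all genes are not given. The count without a peak depends on the rule: with the quasi-likelihood rule in place of glmTreat it was 12 after RA, with the replicate block it was 3 over the 8 comparisons, Ndufa11 was called after 6 h of TT-seq without the count filter, and Ndufb3 after RA without DMSO replicate 1. Only Ndufb10 was kept without depleted replicate 2 after RA, when 1 member was called, and Ndufa3 and Ndufb11 were also not called without DMSO replicate 1 after RA. The highest member was again Ndufb2, at 0.18 (SE 0.160, edgeR glmTreat adjusted p = 1).

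The members with and without a peak were then set side by side. In TT-seq the median log2 change of the 12 with a peak was -0.38, -0.59 and -0.48 after 2, 6 and 24 h, and that of the 25 without was -0.16, -0.19 and -0.02, beside medians of 0.01 over all tested genes at each time. In the RNA-seq time course the medians with a peak were -0.13, -0.31 and -0.37, and without a peak 0.06, -0.10 and -0.20. Before RA they were -0.14 and 0.11, and after RA -0.52 and -0.43. With total counts alone in place of TMM scaling, all of these RNA-seq medians moved up, as that of all genes did, and those without a peak were then above 0 at 48 h (0.10) and 72 h (0.02) of the time course. Of the 12 members with a peak, 16.7%, 33.3% and 25% were called lower after 2, 6 and 24 h of TT-seq, where 17.04%, 18.2% and 22.4% of all protein-coding genes with a peak were. In the RNA-seq time course these shares were 8.33%, 8.33% and 16.7% of the members at 24, 48 and 72 h, against 17.8%, 23.4% and 25.8%. Both before and after RA 16.7% of the members were called, against 21.4% and 17.7%. Each member is 8.33% of the 12, and none of these differences in share was tested. Over the 12 members, Pearson's r of peak enrichment with the log2 change was 0.05, -0.0025 and 0.088 at the 3 TT-seq times and 0.40 after RA, given as a description across genes.

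**Figure D3:**
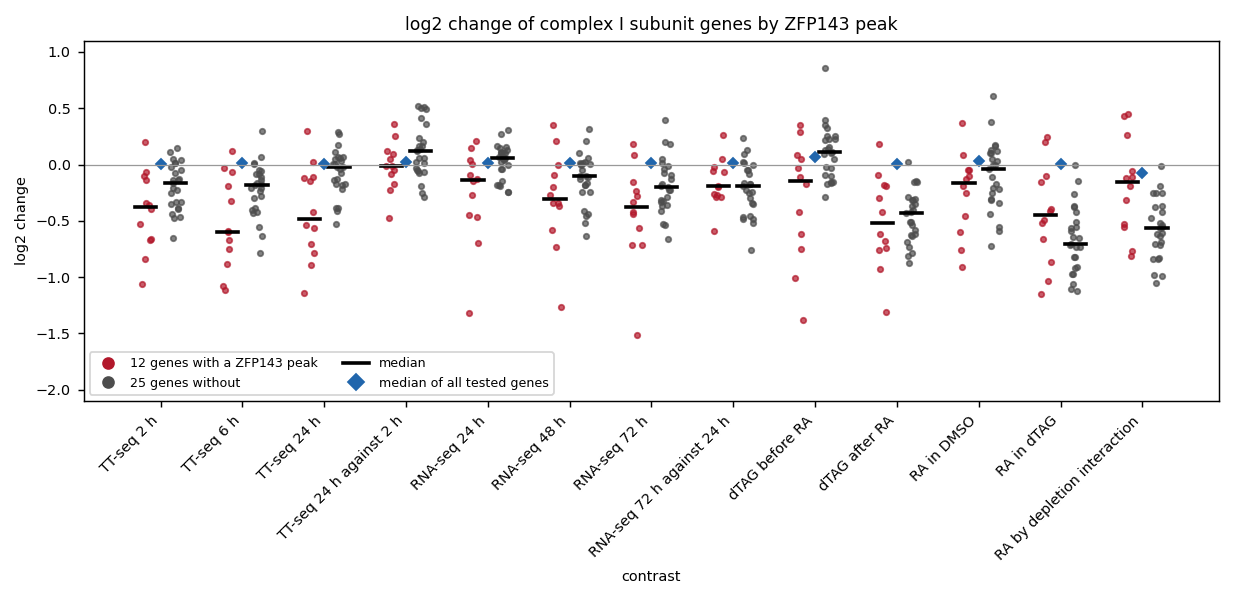
log2 change of each member in 13 contrasts, for the 12 with a ZFP143 peak (red) and the 25 without (grey), with black lines at the medians and diamonds at the median of all tested genes. In TT-seq after 6 h the medians were -0.59 with a peak and -0.19 without, while for RA in depleted cells they were -0.45 and -0.71.

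With RA in DMSO cells, 1 member was called lower (background 18.1%) and 0 higher (25.8%), with 15 lower and 3 higher at an unadjusted quasi-likelihood p under 0.05 in edgeR and 1 called lower and 0 higher by DESeq2. With the quasi-likelihood rule in place of glmTreat, 6 members were lower and 1 higher, for which no share of all genes is given. The member called was Ndufv1, the core subunit that binds NADH and flavin, at 234.6 and 276.1 CPM without RA and 145.2 and 125.9 CPM with it. It fell by 0.91 (SE 0.0863, edgeR glmTreat adjusted p = 2.89e-04). Ndufb11 had the highest value, 0.61 (SE 0.0761, edgeR glmTreat adjusted p = 0.276). With total counts alone in place of TMM scaling, Ndufv1 was not called and Ndufb11 was called higher, at 0.93 (edgeR glmTreat adjusted p = 3.96e-05). Of all 15915 tested genes, 1710 were then called lower and 5164 higher.

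In depleted cells, 13 members were called lower with RA (background 18.5%) and 0 higher (25%), with 31 lower and 1 higher at an unadjusted quasi-likelihood p under 0.05 in edgeR and 7 called lower and 0 higher by DESeq2. The 13 were the peak-bearing Ndufb10, Ndufs6 and Ndufv1, and 10 without a peak, among them Ndufa4, Ndufa10, Ndufa11, Ndufb4, Ndufb5, Ndufb6, Ndufb7, Ndufc1 and Ndufs1. Ndufb10 had the lowest value, from 59.6 and 56.1 CPM to 28.0 and 23.9 CPM, and fell by 1.15 (SE 0.0869, edgeR glmTreat adjusted p = 5.86e-07). Ndufa10, of the membrane arm, went from 177.0 and 176.6 CPM to 82.8 and 79.8 CPM, and fell by 1.12 (SE 0.0778, edgeR glmTreat adjusted p = 2.73e-07). The other calls ranged from -1.10 for Ndufb4 to -0.74 for Ndufs1, whose call was lost without each of the 4 libraries and with DESeq2. Ndufab1 had the highest value, 0.24 (SE 0.0962, edgeR glmTreat adjusted p = 1). Summed over all 37 members, the level was 3273 and 3216 CPM in depleted cells without RA and 2167 and 1982 CPM with RA, against 3297 and 3416 CPM and then 2906 and 2836 CPM in DMSO cells. Stem cell markers moved with RA too, with Pou5f1 between 1487 and 1656 CPM without RA and between 346.6 and 541.3 CPM with it. Of the 9 markers of other cell types, 5 were higher in all libraries with RA than in all without and 1 (Eomes) was lower, with Gata6 of primitive endoderm between 0.0573 and 0.260 CPM without RA and between 7.85 and 20.1 CPM with it, Gata4 between 2.99 and 7.73 and then 9.89 and 21.3 CPM, and Col1a1 of fibroblasts between 0.525 and 1.40 and then 4.15 and 17.4 CPM. The part of these markers was not tested.

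This comparison depends on how libraries are scaled. With total counts alone in place of TMM, the median of all genes moved to 0.39 for RA in depleted cells, 0.35 for RA in DMSO cells, and between 0.06 and 0.23 in the comparisons of depleted with DMSO cells at 24 h or later, and edgeR called 0 members for RA in depleted cells, where DESeq2 with its own size factors called 7. A change of scaling shifts all genes by about the same amount and so leaves the members' place among them as it was. Relative to the median of all genes, that of the members was -0.65 for RA in depleted cells and -0.15 for RA in DMSO cells, with 35 and 26 of 37 members below it.

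The interaction asks whether the RA effect differed between depleted and DMSO cells, and the quasi-likelihood rule was used for it. Since the depleted cells went from 24 to 48 h of depletion while RA was given, the second day of depletion cannot be told apart from RA in it. In the time course without RA, the summed level of the members was 3047 and 2928 CPM at 24 h and 2785 and 2720 CPM at 48 h, and the median of their log2 changes at 48 h minus those at 24 h was -0.07. Here 19 members were called lower, that is, with a lower RA effect in depleted cells (background 18%), and 0 higher (13.7%), with 25 lower and 2 higher at an unadjusted p under 0.05 in edgeR and 15 called lower and 1 higher by DESeq2. With RLE size factors 15 were called lower and 1 higher, and with total counts alone 13 and 2. Of all 15915 tested genes, DESeq2 called 2156 lower and 2163 higher. RLE size factors gave 2515 and 2443, and total counts alone 2404 and 2538. With glmTreat, the rule of the other RNA-seq contrasts, 2 were called, Ndufa4 and Ndufb11, and the other 17 did not pass. Of the 19, 15 had no peak and 4 had one. The lowest was Ndufa4, at 153.1 and 110.4 CPM without RA and 129.2 and 134.3 CPM with RA in DMSO cells, and at 170.3 and 160.8 CPM and then 81.3 and 77.6 CPM in depleted cells. Its interaction was -1.06 on the log2 scale (SE 0.143, edgeR adjusted p = 5.3e-06). Ndufb11 was at 57.4 and 59.7 and then 90.8 and 88.1 CPM in DMSO cells, which passed by the quasi-likelihood rule (log2 change 0.61, edgeR adjusted p = 2.47e-07) and not by glmTreat, and went from 64.9 and 61.4 to 50.3 and 47.5 CPM in depleted cells, an interaction of -0.98 (SE 0.108, edgeR adjusted p = 3.56e-07). Ndufs6, an accessory subunit with the weakest peak, was at 74.9 and 72.2 and then 74.8 and 67.2 CPM in DMSO cells, and at 78.4 and 74.3 and then 44.7 and 39.3 CPM in depleted cells, an interaction of -0.82 (SE 0.118, edgeR adjusted p = 1.23e-05).

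Ndufa3, Ndufa5 and Ndufab1 were the 3 members with an interaction above 0. Ndufa3 had the highest interaction, 0.45 (SE 0.139, edgeR adjusted p = 0.0120), and Ndufab1 followed with 0.43 (SE 0.135, edgeR adjusted p = 0.0130). Neither reached 0.5 in size, so they were not called. Ndufa5 had 0.27 (SE 0.145, edgeR adjusted p = 0.146). The median interaction was -0.16 with a peak and -0.57 without, beside -0.07 over all tested genes. The interaction and the RA effect in depleted cells share libraries with the depletion comparisons, so the values stand side by side and are not independent. Depleted replicate 2 with RA carried most weight: without it 11 members were called lower in the interaction and 1 higher, Ndufa3 at 0.59 (edgeR adjusted p = 0.00483), and 7 were called lower for RA in depleted cells. Without depleted replicate 1 before RA, 9 were called for RA in depleted cells. Without 1 of the other libraries, 17 to 20 were called lower in the interaction, and up to 2 higher, the 2 without DMSO replicate 1 with RA.

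**Figure D4:**
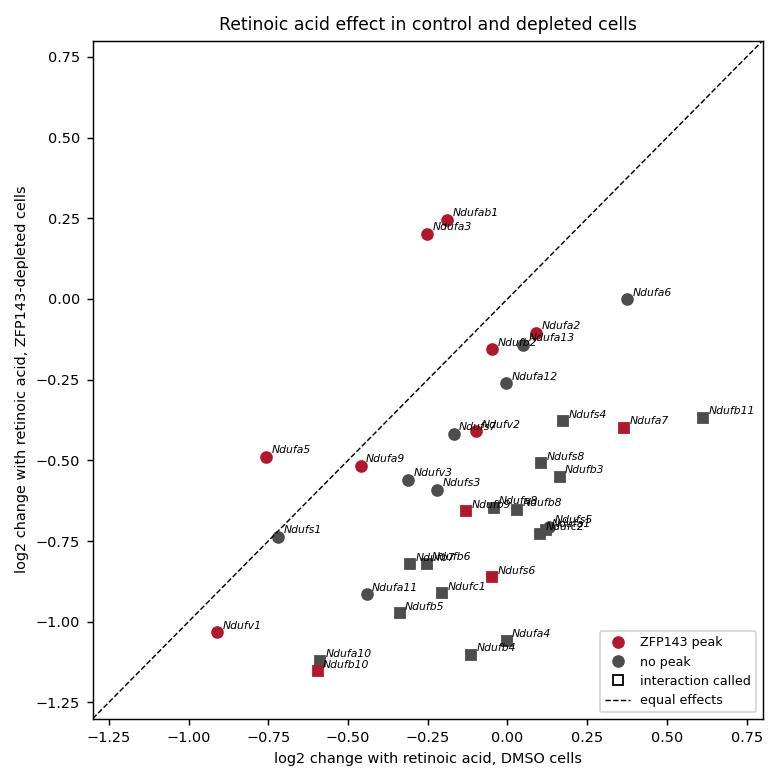
log2 change with RA in DMSO cells (horizontal) against that in depleted cells (vertical) for 36 members, red with a ZFP143 peak and grey without. Squares are the 19 members whose interaction was called, all below the dashed line of equal effects, while Ndufa3, Ndufa5 and Ndufab1 lie above it.

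By role, the membrane arm held most interaction calls, 14 of its 19 accessory members, against 3 of 9 of the peripheral arm and 1 of 7 core subunits, which was Ndufs8, beside Ndufa4. These are 73.7%, 33.3% and 14.3%, against 18% of all tested genes, the differences between roles were not tested, and with glmTreat the calls were Ndufa4 and Ndufb11 alone. Among core subunits Ndufv2 was called after 72 h, and Ndufv1 and Ndufs1 were among those called with RA in depleted cells, Ndufs1 only with all libraries kept. The median interaction was -0.60 for the membrane arm, -0.26 for the accessory peripheral arm and -0.31 for the core subunits. In TT-seq after 6 h, the medians of the same groups were -0.21, -0.19 and -0.21.

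**Figure D5:**
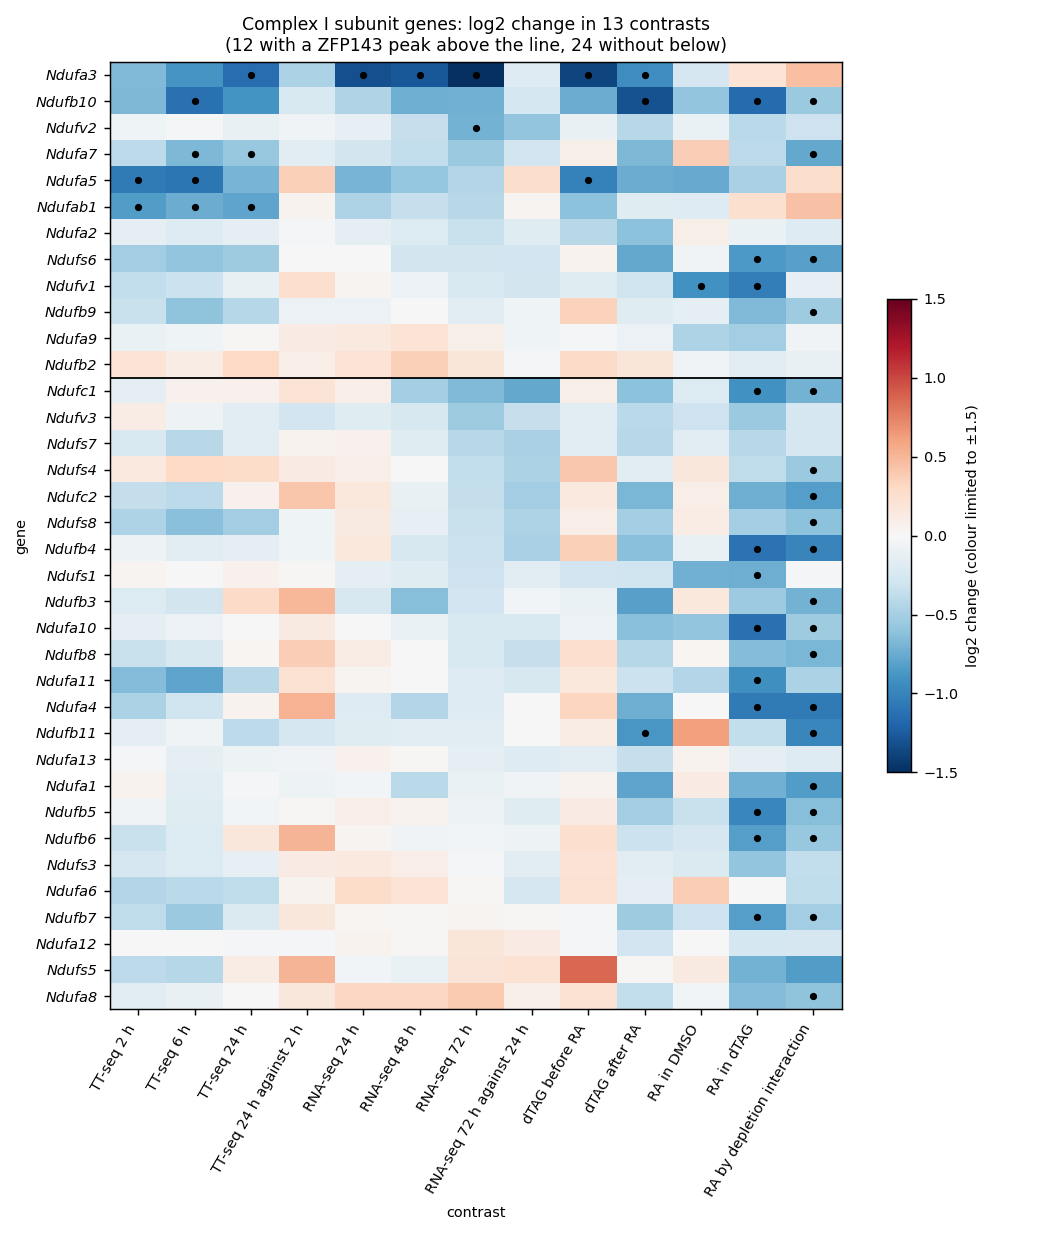
log2 change of 36 members (rows) in 13 contrasts (columns), with members that have a ZFP143 peak above the line and dots at called values. Dots in the comparisons of depleted with DMSO cells lie above the line except that of Ndufb11 after RA, and those of RA in depleted cells and of the interaction lie mostly below it.

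The other genes of the pathway were taken from fixed lists. Of 17 complex I assembly factors tested, 0 were called in TT-seq against DMSO at each of the 3 times by edgeR or DESeq2, with at most 1 lower and 1 higher at an unadjusted p under 0.05. After 72 h in RNA-seq, 2 were called lower and 1 higher: Nubpl, which delivers iron-sulfur clusters to complex I, at -1.09 (SE 0.118), Ndufaf3 at -0.93 (SE 0.116) and Tmem126b at 1.01 (SE 0.0915). These are 11.8% and 5.88% of the list, against 12% and 13.7% of all tested genes. DESeq2 called 1 lower and 0 higher there. In the interaction 7 (41.2%) were called lower and 1 (5.88%) higher, against 18% and 13.7%. The complex I subunits encoded in mitochondrial DNA had 5 tested genes, of which 0 were called at 2 h or 6 h of TT-seq by edgeR or DESeq2, with 0 at an unadjusted p under 0.05, and 4 at 24 h, all lower (background 4.09%). In RNA-seq edgeR called 1, 3 and 4 of the 5 lower after 24, 48 and 72 h (3.41%, 7.71% and 12%), and DESeq2 0, 3 and 3. The depleted cells of the RA experiment before RA had 0 by edgeR or DESeq2, with 3 lower at an unadjusted p under 0.05 in edgeR. Of the nuclear subunits of complexes II to V, 6 of 39 (15.4%) were called lower at each TT-seq time (background 2.43%, 2.83% and 4.09%), against 2, 4 and 3 of 37 for complex I, and 8, 15 and 14 of 38 after 24, 48 and 72 h in RNA-seq, against 1, 1 and 2 of 37 for complex I. In RNA-seq these are 21.1%, 39.5% and 36.8% of complexes II to V, beside 3.41%, 7.71% and 12% of all tested genes. The difference between the lists was not tested. The medians in RNA-seq after 72 h were -0.60 for complexes II to V and -0.23 for complex I. The interaction was called lower in 17 of 38 subunits of complexes II to V and higher in 1 (background 18% and 13.7%). It was called lower in 4 of the 5 mitochondrial DNA subunits, and in 19 of 37 members of complex I. For RA in depleted cells, 26 of 38, 5 of 5 and 13 of 37 were called lower (18.5%). After RA, depletion lowered 17 of 38, 4 of 5 and 3 of 37 (7.36%).

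Several peaks of members also lay near the start of another protein-coding gene. Ndufa7 starts 10 bases from Rps28, a ribosomal protein gene on the opposite strand, which was not called in TT-seq against DMSO (log2 changes of -0.11, -0.30 and -0.15) or in the RNA-seq time course. After RA, Rps28 fell by 1.16 in depleted cells (SE 0.0727, edgeR glmTreat adjusted p = 1.73e-07), where Ndufa7 had -0.68 (edgeR glmTreat adjusted p = 0.149). Their interactions were -1.14 (SE 0.101) and -0.76 (SE 0.109), both called. Ndufb9 starts 70 bases from Tatdn1, Ndufa2 99 bases from Ik and Ndufs6 61 bases from Mrpl36, a mitochondrial ribosomal protein gene. None of these 3 partners was called in any of the 13 contrasts. Oscar, near Ndufa3, and Asb15, near Ndufa5, did not pass the filter on low counts.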

How the data were processed

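Per the labels and the study's methods, the deposited gene tables hold raw counts: STAR mapped reads to mm10 with a GENCODE annotation, RNA-seq reads were counted by STAR per gene, and TT-seq reads without duplicates were split by strand and counted over whole genes with HTSeq. The submitters' processing notes name BWA, SAMtools, Picard, STAR, HTSeq and deepTools. The deposited peak lists came from MACS2 against input, and the ZFP143 list gives fold enrichment (a ratio), scores and -log10 p and q-values in the narrowPeak layout, without a header. The ZFP143 list was 1 call without replicates, and the CTCF list pooled conditions. Which strand column the RNA-seq counts came from is not given in the sources used here.

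Here, a gene had to exceed 10 counts in 4 or more of the 8 libraries in its table, and was tested with edgeR 4.0.16 (limma 3.58.1, R 4.3.3): TMM scaling, all 4 groups of a table in 1 fit, and Benjamini-Hochberg adjustment over all tested genes. TT-seq and the interaction used the quasi-likelihood test (adjusted p under 0.05, log2 change over 0.5), and other RNA-seq contrasts glmTreat against a fold of 1.5 (adjusted p under 0.01). CPM are scaled by TMM. GENCODE vM21 gave transcript starts and matched 55141 of 55401 genes. The functions were tested on simulated data. Alternatives were DESeq2 1.42.0, other scalings, filters, thresholds, peak windows, a replicate block and leaving out each library. Differences between replicates 1 and 2 correlated at 0.20 to 0.65 over all 6 pairs of TT-seq groups, so blocked values are given there, and at -0.05 to 0.06 in the time course and -0.15 to 0.17 in the RA experiment. The members and lists were chosen with earlier results of these data known. Named were members with a peak, those called in any contrast, the lowest and highest of each contrast, and Ndufab1. 0 sample columns were left out. The 4C table was not used here. 1 member counts in all totals and is not reported here by name.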

Additional observations from a re-analysis of the deposited data

Results flagged for a closer look

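The effect of RA on 19 members differed between depleted and DMSO cells by the interaction test itself, each with a lower effect in depleted cells, where RA cannot be told apart from the second day of depletion. With glmTreat in its place, 2 of the 19 were called, Ndufa4 and Ndufb11. By the interaction test, 17 of 38 subunits of complexes II to V were called lower too. The log2 interaction of the accessory members of the membrane arm without a peak was Ndufa1 at -0.84, Ndufa8 at -0.60, Ndufa10 at -0.53, Ndufb3 at -0.71, Ndufb4 at -0.99, Ndufb5 at -0.64, Ndufb6 at -0.57, Ndufb7 at -0.52, Ndufb8 at -0.68, Ndufb11 at -0.98, Ndufc1 at -0.71 and Ndufc2 at -0.83. The other members without a peak were Ndufa4 at -1.06, Ndufs4 at -0.55 and Ndufs8 at -0.62, and those with a peak were Ndufa7 at -0.76, Ndufb10 at -0.56, Ndufb9 at -0.53 and Ndufs6 at -0.82. No group had the 4 or more libraries that a search for single outlying libraries needs.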

How the results depend on the processing

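Of 51 called values of members, DESeq2 kept 38, RLE size factors 45, total counts alone 27, no count filter 51, the replicate block 50 and the other thresholds 25. None of the 586 values of these called results under an alternative changed sign, and 24 of the 51 were kept without each single library. With the other thresholds (glmTreat for TT-seq and the interaction, the quasi-likelihood rule elsewhere) the members called lower were 0 at each of the 3 TT-seq times, 2, 5 and 7 after 24, 48 and 72 h, 3 between 72 and 24 h, 4 in the RA experiment before and 18 after the switch, 6 lower and 1 higher for RA in DMSO cells, 23 for RA in depleted cells and 2 for the interaction. With total counts alone they were 1 after 72 h, 1 before RA, 1 with RA, 0 lower and 1 higher for RA in DMSO cells, 0 for RA in depleted cells, and 2 higher for the interaction. DESeq2 called 1 after 72 h, 1 with RA, 7 for RA in depleted cells and 1 higher for the interaction, where RLE size factors also called 1 higher. Without the count filter 5 were called at 24 h of TT-seq. Shares of all genes are not given for this fit, the other thresholds or the replicate block. With the replicate block, 9 members were called after 6 h and 6 after 24 h of TT-seq, and in the other tables, where the numbers did not pair the libraries, it ended the call of Ndufs1 for RA in depleted cells.

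Leaving out 1 library gave 0 to 2 members after 2 h, 0 to 2 after 6 h and 0 to 2 after 24 h of TT-seq, 1 to 2 after 48 h, 1 to 2 after 72 h, 0 to 1 between 72 and 24 h, 1 to 2 prior to RA, 1 to 3 once RA was given, 7 to 12 for RA in depleted cells, and 11 to 20 lower and 0 to 2 higher for the interaction. With total counts alone the medians with and without a peak were -0.00078 and 0.19 after 24 h, -0.11 and 0.10 after 48 h, -0.16 and 0.021 after 72 h, -0.11 and -0.10 between 72 and 24 h, -0.0067 and 0.24 prior to RA, -0.31 and -0.22 once RA was given, 0.16 and 0.28 for RA in DMSO cells, and -0.058 and -0.32 for RA in depleted cells. The number of members with a peak was 12 at each distance and 10 for peaks at or above the median enrichment. Low counts limit Ndufs5, at 0.632 to 2.31 CPM in RNA-seq, and whether reads shared with other genes or copies are missing from the counts of Ndufb2, Ndufb4 and Ndufs5 was not tested. The cause of these differences was not tested.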
